A study of Rattus norvegicus with 54 samples.

Results

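The 100 genes described here had their highest level at 6 h in untransfected cultures of rat cortical neurons, with lower levels at 2 h and at 24 h. They were chosen from the 18 untransfected libraries, on the scale log2(CPM + 0.5), where CPM is a gene's count scaled to the library's total, averaged at each time over both media. Candidates were genes on chromosomes 1 to 20 that spanned less than 500 kb and averaged at least 5 CPM at 6 h, and 10506 of the 30560 genes counted met these terms. Each candidate was scored by the smaller of its 2 differences, 6 h minus 2 h and 6 h minus 24 h. The score was above 0 in 1754 candidates, and the 100 highest were taken. The levels in untransfected libraries therefore chose the genes and are given as a description only. The tests below use the libraries of virus-treated cultures, which took no part in the choice but carry the same culture numbers. The comparison of media also includes the untransfected libraries. It is given without them as well for 6 h and for the height of the peak, but not for 2 h and 24 h.

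The study asked about the role of Mbd3, methyl-CpG binding domain protein 3, in epileptogenesis. It measured mRNA in cultures from the cortex of rat embryos at embryonic day 18, labelled as neurons. Cultures were untransfected, or carried an adeno-associated virus (AAV) with GFP under the SYN promoter (AAV-SYN-GFP), or the same kind of virus with rMBD3 and GFP (AAV-SYN-rMBD3-GFP, given as Mbd3 overexpression). Each kind was kept in standard medium with magnesium or in magnesium-free medium, labelled epileptiform, and sampled at 2, 6 and 24 h. Each of the 18 groups had 3 libraries, from cultures numbered 1 to 3, for 54 in all. The GFP and rMBD3 cultures shared the SYN promoter and the virus, so a comparison between them differs in rMBD3, while a comparison of either with untransfected cultures would also differ in virus and GFP. The labels do not say whether the cells came from separate litters. The main fit had no term for the culture number, so its p-values measure the spread between libraries within groups. They take same-numbered libraries of both media, of different times and of GFP and rMBD3 cultures as independent.

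MBD3 is a subunit of the NuRD complex, which remodels nucleosomes and removes acetyl groups from histones. Magnesium ions normally block the pore of NMDA receptors at rest, and neurons kept without magnesium fire in synchronised bursts, which is why such medium serves as a culture model of seizures. Neurons that are stimulated switch on genes in waves: a first wave of transcription factors within the hour, then later waves of effectors and structural genes, many of which return to their former level. The count table names genes by Ensembl identifier, and 0 identifiers could be matched to a symbol with the tables at hand. The 100 genes are therefore described by identifier, position, gene structure and behaviour; their functions, the check of the neuron label against marker genes and the level of Mbd3 itself were not analysed here. In cultures that may hold several cell types, more RNA per cell and more cells of a type cannot be told apart.

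Total counts per library were 14448927 to 39691105, which puts the level of 3 counts, used here as a floor, at 0.0756 to 0.208 CPM. This floor covers counting error only. All 100 genes passed the filter on low counts and were among the 17172 genes tested. The libraries of culture 1 stood apart in places that touch these genes. With magnesium at 24 h, culture 1 had the highest mean level of the 100 genes in each of the 3 kinds of culture. At 6 h, the culture 1 library with GFP and magnesium had the lowest. Counts of genes without these libraries are therefore also given for several results.

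In untransfected libraries the mean level of the 100 genes, on the log2(CPM + 0.5) scale, was 4.54 ± 0.23 for 2 h, 5.80 ± 0.28 for 6 h and 4.68 ± 0.44 for 24 h (SD over 6 libraries). Together they took 1.2% ± 0.369 of all counts at 2 h, 2.48% ± 0.54 at 6 h and 1.24% ± 0.473 at 24 h. Their levels at 6 h ran from 5.43 to 5569 CPM with a median of 73.3, beside a median of 42.6 over all candidates; CPM is not corrected for gene length. The score was highest for ENSRNOG00000002926 (1.86) and ENSRNOG00000031342 (1.82). The last 2 genes inside the threshold scored 0.69 each, as did the first 2 outside to that precision (0.6882 inside against 0.6856 outside), so the boundary separates near neighbours.

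All 100 genes were highest at 6 h in the untransfected libraries with magnesium and also in those without. The median difference from 2 h was 0.94 with magnesium and 1.39 without, on the log2 scale. By culture, 79 of the 100 were highest at 6 h in culture 1, 100 in culture 2 and 99 in culture 3. The rule applied with only 1 medium, or without 1 culture, kept between 67 and 74 of the 100 genes.

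In GFP libraries the mean level of the 100 genes on the same scale was 4.25 ± 0.30 for 2 h, 5.66 ± 0.44 for 6 h and 4.70 ± 0.30 for 24 h (SD over 6 libraries). The lowest, median and highest library were 3.87, 4.19 and 4.73 at 2 h, 4.83, 5.79 and 6.01 at 6 h, and 4.41, 4.56 and 5.10 at 24 h. Every 6 h library was thus above every 2 h library, while 1 library at 6 h, culture 1 with magnesium, lay among those of 24 h. In rMBD3 libraries the means were 5.01 ± 0.27, 6.08 ± 0.18 and 4.72 ± 0.46 at the 3 times. There the 6 h libraries, from 5.92 to 6.41, lay above those of 2 h, which reached 5.37, and those of 24 h, which reached 5.55.

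**Figure D1:**
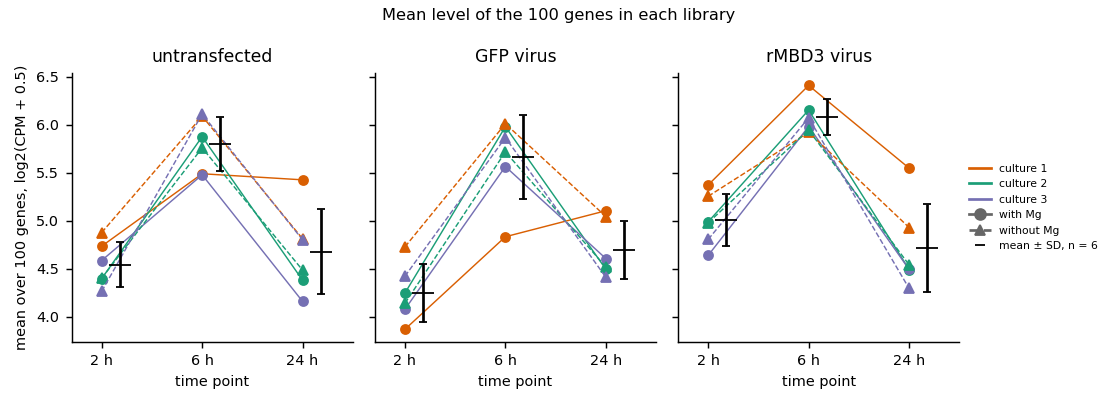
Mean of log2(CPM + 0.5) over the 100 genes in each of 54 libraries, by time point (x axis) and kind of culture (panel); colours are culture numbers, circles with solid lines are libraries with magnesium, triangles with dashed lines those without, and black bars are mean ± SD of 6 libraries. The 6 h means are the highest in each panel (5.80, 5.66 and 6.08), and culture 1 with magnesium does not fall from 6 h to 24 h in the GFP panel.

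By the mean over libraries, 98 of the 100 genes were highest at 6 h in GFP cultures and 93 in rMBD3 cultures, beside 11.7% and 13.8% of all candidates. Within single cultures the count varied. In GFP culture 1 with magnesium, 41 of the 100 genes were highest at 6 h, and the median difference between 6 h and 24 h was -0.26. In the other 5 pairings of culture and medium with GFP the count was 86 to 96. In rMBD3 libraries it was 62 in culture 1 without magnesium and 80 to 96 in the other 5.

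**Figure D2:**
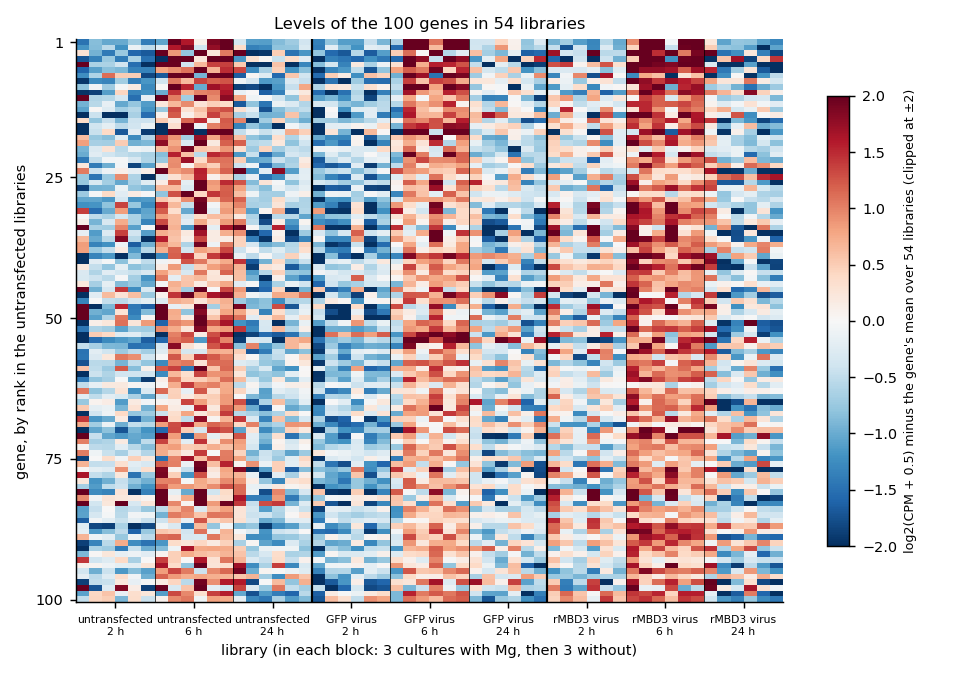
Level of each of the 100 genes (rows, by rank of the score in untransfected libraries) in each of 54 libraries (columns, grouped by kind of culture and time), as log2(CPM + 0.5) minus the gene's mean over all libraries, with the colour scale clipped at 2 either way. The 6 h blocks are mostly red in all 3 kinds of culture, and the first column of the GFP 6 h block, culture 1 with magnesium, is paler.

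The increase from 2 h to 6 h was tested in GFP cultures, averaged over both media. All 100 genes had a positive log2 fold change, with a median of 1.36 beside -0.03 over all genes tested. The increase passed an adjusted p of 0.05 (edgeR's quasi-likelihood test, Benjamini-Hochberg over all genes) in 67 of the 100, beside 9.76% of all genes. In 22 genes all 6 libraries at 6 h lay above all 6 at 2 h, beside 4.81% of candidates. The count of 67 was 92 without culture 1, 20 without culture 2 and 22 without culture 3. Without the single GFP library of culture 1 with magnesium at 6 h it was 69, beside 4191 of all genes in either direction. Calls over all genes, in either direction, moved too: 6173, 914 and 1001 without cultures 1, 2 and 3, against 4018 in the main fit.

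From 6 h to 24 h in GFP cultures, 97 of the 100 genes had a higher level at 6 h, with a median difference of 0.93 beside 0.01 over all genes. The fall passed the edgeR test in 38, beside 15.5% of all genes, and in 66 with the culture number as a block. Libraries of the 2 times did not overlap in 7 genes, a smaller share than the 9.9% of candidates. Without culture 1 the count was 74, without culture 2 it was 9 and without culture 3 it was 6. Without the 3 libraries of culture 1 with magnesium at 24 h it was 47.

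In rMBD3 cultures, 95 of the 100 genes were higher at 6 h than at 2 h, with a median of 1.01 beside -0.02. The increase passed the edgeR test in 39, beside 9.48% of all genes, and in 59 with the culture number as a block. The 6 h libraries lay above those of 2 h without overlap in 32 genes, beside 9.41% of candidates. The count of 39 was 66 without culture 1, 23 without culture 2 and 9 without culture 3. These omissions called 5509, 1650 and 976 of all genes in either direction. The block called 5494 of all genes and the main fit 4032. The fall from 6 h to 24 h had a median of 1.26 beside -0.01, and 97 genes were lower at 24 h. It passed in 51 genes, beside 17.8% of all genes, and libraries did not overlap in 19, beside 10.9% of candidates. Without cultures 1, 2 and 3 in turn, 78, 31 and 15 genes were called, beside 8022, 2628 and 938 of all genes in either direction. The main fit called 5603 of all genes. Without the 3 libraries of culture 1 with magnesium at 24 h, 62 of the 100 were called, beside 6922 of all genes. In all 4 of these tests, 0 of the 100 genes were called in the opposite direction by edgeR, 0 had an unadjusted p under 0.05 in that direction, and DESeq2 called 0.

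Both an increase to 6 h and a fall after it were called in 27 of the 100 genes in GFP cultures, beside 0.355% of all genes, and in 25 in rMBD3 cultures, beside 0.553%. With the culture number as a block these counts were 56 and 45. They were 69 and 57 without culture 1, 4 and 9 without culture 2, and 1 and 4 without culture 3. Without the GFP library of culture 1 with magnesium at 6 h, 36 passed both GFP tests. Without the 3 libraries of culture 1 with magnesium at 24 h, 36 passed both GFP tests and 34 both rMBD3 tests. For these alternatives the share of all genes past both tests was not taken, while calls over all genes in the single tests moved too. In the main fit, 27 of the 61 genes past both tests in GFP cultures in the whole table were among the 100. So were 25 of 95 in rMBD3 cultures. All 4 tests were passed by 14 of the 100, beside 0.21% of all genes, and none of the 4 by 15. The 6 libraries of 6 h lay above those of both other times in 5 genes with GFP and 9 with rMBD3, beside 0.0761% and 0.267% of candidates. In the 15 genes past none of the tests the median increase was 1.14 with GFP (15 positive) and 0.58 with rMBD3 (14 positive, lowest -0.30). Their median fall was 0.88 with GFP and 1.24 with rMBD3, each positive in 14, with lowest values of -0.03 and -0.09.

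**Figure D3:**
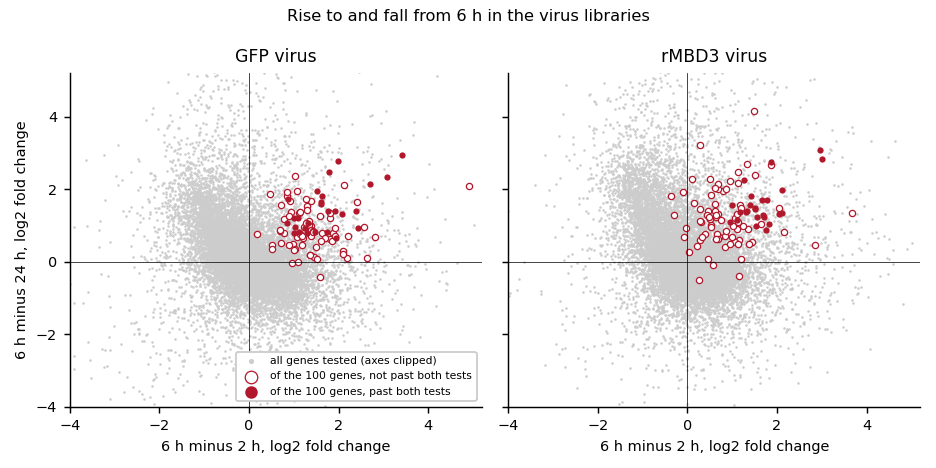
Log2 fold change of 6 h over 2 h (x axis) and of 6 h over 24 h (y axis) for GFP and rMBD3 cultures, averaged over both media; grey points are all genes tested (those beyond the axes are not drawn), open red points the genes of the 100 not past both tests, filled red points those past both. Most of the 100 lie in the upper right of the panel, with medians of 1.36 and 0.93 for GFP and 1.01 and 1.26 for rMBD3.

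The gene with the highest score in untransfected libraries, ENSRNOG00000002926 (chromosome 13, 82342946 to 82377469, minus strand), also had one of the largest peaks in virus-treated cultures. In GFP libraries its lowest, median and highest values were 39.9, 50.9 and 74.3 CPM at 2 h, 66.7, 497 and 802 CPM at 6 h, and 59.5, 81.2 and 139 CPM at 24 h. In rMBD3 libraries they were 41.2, 52 and 69.9 CPM, then 99.2, 567 and 672 CPM, then 41.2, 53.8 and 120 CPM. The low values at 6 h all belonged to culture 1: its 2 GFP libraries held 66.7 and 217 CPM and its 2 rMBD3 libraries 198 and 99.2 CPM, while the other 8 libraries held 430 CPM or more. The 6 h libraries overlapped those of 2 h with GFP through 1 library, and did not overlap with rMBD3. The increase from 2 h to 6 h was 3.07 ± 0.45 (log2 fold change ± SE) with GFP and 2.99 ± 0.45 with rMBD3, with edgeR adjusted p-values of 3.19e-06 and 4.42e-06. The differences between 6 h and 24 h were 2.34 ± 0.43 and 2.84 ± 0.44 (edgeR adjusted p-values of 0.000101 and 6.72e-06). Without culture 2 the GFP difference between 6 h and 24 h was 1.60 and did not pass.

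The second by score, ENSRNOG00000031342 (chromosome 6, 1714435 to 1715952), has a single exon block in the annotation and showed the same split by culture. With GFP its lowest, median and highest values were 1.21, 2.59 and 3.39 CPM at 2 h, 1.04, 18.1 and 27.8 CPM at 6 h, and 2.18, 2.76 and 7.8 CPM at 24 h. With rMBD3 the 6 h values were 2.76, 20.6 and 27.3 CPM, against 3.23 CPM at most at 2 h and 5.78 CPM at most at 24 h. The 4 virus libraries of culture 1 at 6 h held 1.04 to 6.48 CPM and the other 8 held 17 CPM or more, so every overlap with the other times involved a 6 h library of culture 1. The increase was 2.70 ± 0.59 with GFP and 2.95 ± 0.59 with rMBD3, with edgeR adjusted p-values of 0.000731 and 0.000304. The differences between 6 h and 24 h were 2.15 ± 0.57 and 3.07 ± 0.60 (edgeR adjusted p-values of 0.00476 and 0.000147). Without culture 3 none of these 4 differences passed, at 2.44, 2.13, 2.50 and 2.61 in the order GFP increase, GFP fall, rMBD3 increase and rMBD3 fall. Without culture 2 the GFP increase (2.66) and the GFP fall (1.54) did not pass.

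A pair of neighbours on chromosome 1 was split by culture in the same way. ENSRNOG00000017386 (69068137 to 69076129) and ENSRNOG00000033173 (69077207 to 69095316) lie 1078 bases apart on the plus strand with no annotated gene between them. The first held 52.2 to 107 CPM at 6 h in the 4 GFP libraries of cultures 2 and 3, and 0.22 and 4.9 CPM in those of culture 1. The second held 13.9 to 39 CPM in the former and 1.09 and 1.76 CPM in the latter. With GFP the increase to 6 h was 3.42 ± 1.02 for ENSRNOG00000017386 and 2.13 ± 0.83 for ENSRNOG00000033173, and only the first passed (edgeR adjusted p-values of 0.0123 and 0.0589). With rMBD3 the first reached 34 CPM at most at 6 h and the second 6.97 CPM, with increases of 1.51 ± 0.95 and -0.30 ± 0.80 that did not pass (edgeR adjusted p-values of 0.268 and 0.833). The difference between rMBD3 and GFP at 6 h for the second gene, -2.07 ± 0.83, did not pass either (edgeR adjusted p of 0.378). ENSRNOG00000017386 also overlaps another annotated gene on its strand, so its counts are less certain.

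**Figure D4:**
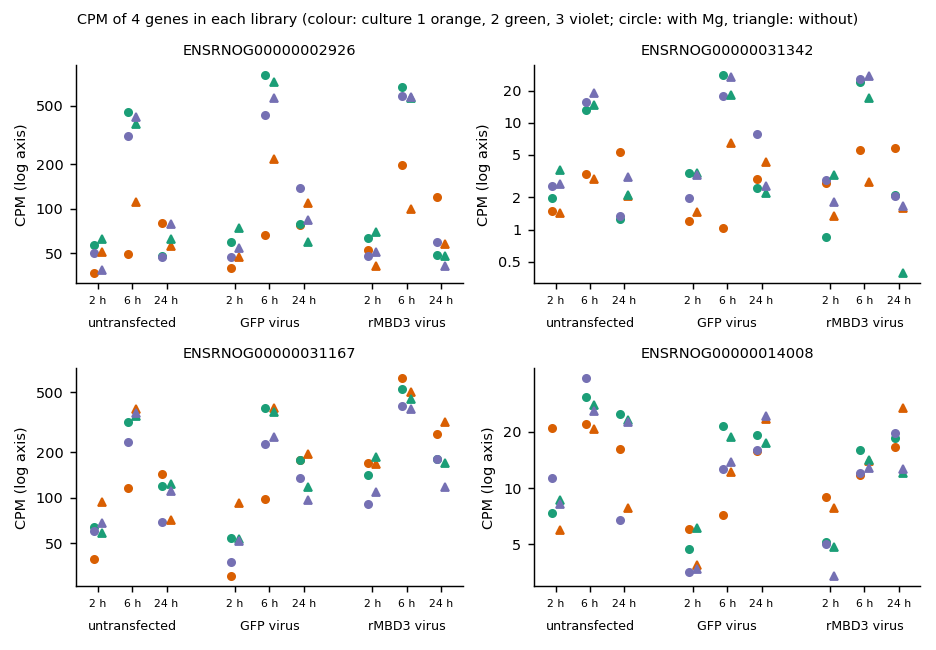
CPM (log axis) of 4 genes in each of 54 libraries, by kind of culture and time point; orange, green and violet are cultures 1, 2 and 3, circles libraries with magnesium and triangles those without. In the upper panels the orange points at 6 h lie below the other cultures (ENSRNOG00000002926 held 430 CPM or more in cultures 2 and 3 with either virus), and in the lower right panel the 24 h points of both virus kinds stay at the height of 6 h.

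At the other end, 2 of the 100 genes had no peak at 6 h in virus-treated cultures on average. For each gene the smaller of its mean increase and mean fall over both kinds of virus culture was taken: the median over the 100 was 0.871, the quartiles were 0.616 and 1.13, and the range was -0.41 to 2.61. The lowest was ENSRNOG00000014008 (chromosome 5, 135225816 to 135240690). Its lowest, median and highest values with GFP were 3.55, 4.3 and 6.15 CPM at 2 h, 7.17, 13.2 and 21.6 CPM at 6 h, and 15.8, 18.3 and 24.5 CPM at 24 h. With rMBD3 they were 3.37, 5.1 and 9.02 CPM, then 11.7, 13.4 and 16 CPM, then 12.1, 17.6 and 26.9 CPM. Its libraries at 6 h lay above those of 2 h without overlap in both, and those of 24 h overlapped those of 6 h. The increase to 6 h passed with GFP (1.58 ± 0.29) and with rMBD3 (1.16 ± 0.28), with edgeR adjusted p-values of 7.15e-05 and 0.00225. The differences of 6 h minus 24 h, -0.43 ± 0.28 and -0.40 ± 0.28, did not (edgeR adjusted p-values of 0.265 and 0.282). The rMBD3 increase did not pass without culture 2 or without culture 3, at 1.01 and 0.99.

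The other was ENSRNOG00000053272 (chromosome 13, 45641802 to 45649787). With GFP its lowest, median and highest values were 28.6, 41.3 and 80.2 CPM at 2 h, 81.96, 116 and 206 CPM at 6 h, and 45.2, 111 and 162 CPM at 24 h. With rMBD3 they were 45.5, 132 and 199 CPM, then 105.3, 139 and 237 CPM, then 132, 223 and 306 CPM. The GFP libraries of 6 h lay just above those of 2 h, and with rMBD3 all 3 times overlapped. Its increase to 6 h passed with GFP at 1.37 ± 0.38 and did not with rMBD3 at 0.26 ± 0.37 (edgeR adjusted p-values of 0.00732 and 0.667). The GFP increase did not pass without culture 2, at 1.13, and the difference of 6 h minus 24 h with rMBD3, -0.51 ± 0.38, passed only without culture 1, at -1.04.

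Whether levels at 24 h had returned to those of 2 h was tested over both kinds of virus culture. The median difference between 24 h and 2 h was 0.10 over the 100 genes, and -0.15 without the 3 libraries of culture 1 with magnesium at 24 h, so its direction turned on those libraries. With all libraries, 42 of the 100 genes lay within 0.5 of 0 on the log2 scale. By edgeR, 23 genes were higher at 24 h, beside 31.6% of all genes, and 15 were lower, beside 33.4%. The 38 genes called became 61 without culture 1 and 21 without culture 3. Calls over all genes were 12101 and 8674 there, against 11160 in the main fit. Without the 3 libraries of culture 1 with magnesium at 24 h, 46 of the 100 and 11436 of all genes were called. In GFP cultures alone 28 genes were higher at 24 h than at 2 h and 3 were lower, beside 24.6% and 28.1% of all genes. In rMBD3 cultures alone 8 were higher and 19 lower, beside 25.9% and 27.6%. The medians were 0.43 with GFP and -0.18 with rMBD3.

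Among genes that stayed high, ENSRNOG00000004624 (chromosome 3, 35571143 to 35589327) had lowest, median and highest values with GFP of 23.7, 45.4 and 59.2 CPM at 2 h, 77, 190.2 and 232 CPM at 6 h, and 83.4, 117 and 133 CPM at 24 h. Its libraries at 24 h lay above those of 2 h without overlap. It rose from 2 h to 6 h by 1.94 ± 0.22 with GFP and by 1.76 ± 0.22 with rMBD3, and came down by 0.64 ± 0.21 and 0.87 ± 0.21 (edgeR adjusted p-values of 6e-08, 1.77e-07, 0.0221 and 0.00171). Over both virus kinds it was higher at 24 h than at 2 h by 1.10 ± 0.15 (edgeR adjusted p of 3.84e-08). ENSRNOG00000014008, described above, had the smallest adjusted p of the 100 in this comparison, with a difference of 1.78 ± 0.20 (edgeR adjusted p of 4.88e-10).

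Among genes that ended lower, ENSRNOG00000014900 (chromosome 17, 54239030 to 54305989), the last gene inside the threshold, had lowest, median and highest values with rMBD3 of 51.9, 87.3 and 156 CPM at 2 h, 88.2, 147 and 162 CPM at 6 h, and 21.4, 24.9 and 44.2 CPM at 24 h. The libraries of 24 h lay below all others, and those of 2 h and 6 h overlapped. Its increase did not pass with either virus, at 0.47 ± 0.32 and 0.50 ± 0.32 (edgeR adjusted p-values of 0.309 and 0.278). Over both kinds it was lower at 24 h than at 2 h, with a log2 fold change of -1.58 ± 0.23 (edgeR adjusted p of 2e-07). ENSRNOG00000062383 (chromosome 6, 109665523 to 109679809) held 34.98, 65.95 and 88.4 CPM at 2 h with rMBD3, 122, 156 and 285 CPM at 6 h, and 2.47, 5.72 and 26.8 CPM at 24 h. The 3 times did not overlap, and its difference of 6 h minus 24 h, 4.17 ± 0.68, was the largest of the 100 with rMBD3 (edgeR adjusted p of 1.38e-05). Over both kinds its difference of 24 h minus 2 h was -1.68 ± 0.44 (edgeR adjusted p of 0.000964), and without culture 2 it was -1.17 and did not pass.

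The GFP and rMBD3 cultures were then compared at each time. At 2 h, a comparison added after the data were seen, 90 of the 100 genes were higher with rMBD3, with a median log2 difference of 0.91 beside -0.04 over all genes. By edgeR 10 were higher and 0 lower, beside 0.769% of all genes called higher. An unadjusted p under 0.05 was found in 45, all of them higher, beside 1984 of the 17172 genes in either direction. DESeq2 called 19 higher and 0 lower. With the culture number as a block 30 were called, beside 458 of all genes in either direction. The count was 18 without culture 1 and 0 without culture 2 or without culture 3, where DESeq2 was not run. Of all genes, 215, 1 and 1 were called without cultures 1, 2 and 3, against 150 in the main fit. The mean level of the 100 genes was higher with rMBD3 in 6 of 6 same-numbered pairs of libraries, by 0.38 to 1.50, and the largest difference belonged to culture 1 with magnesium, whose GFP library had the lowest mean at 2 h.

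At 6 h the median difference was 0.43 beside -0.04, and 82 genes were higher with rMBD3. By edgeR 0 of the 100 were called, beside 0.221% of all genes in either direction, and DESeq2 called 0. An unadjusted p under 0.05 was found in 16, beside 1632 of the 17172 genes. With the culture number as a block 3 were called, beside 243 of all genes in either direction. At 24 h, also added after the data were seen, the median was 0.13. There edgeR called 0, beside 0.949% of all genes in either direction and 0.396% called higher, and DESeq2 called 1. An unadjusted p under 0.05 was found in 12, a smaller share than the 2996 of the 17172 genes. With the block 8 were called, beside 1131 of all genes in either direction. Without culture 1 the count was 25, beside 1766 of all genes, against 163 of all genes in the main fit. The median was -0.07 without culture 1. It was also -0.07 without the 3 libraries of culture 1 with magnesium at 24 h, so its direction turned on culture 1. Without those 3 libraries 1015 of all genes were called, and the count of the 100 is not given. The mean level was higher with rMBD3 in 5 of 6 pairs at 6 h and in 2 of 6 at 24 h. At 6 h the pair of culture 1 with magnesium differed by 1.58 and the others by -0.09 to 0.42. Without the GFP library of that pair the 6 h median was 0.36, and 12 genes had an unadjusted p under 0.05 by edgeR. Of all genes 6 were then called, against 38 in the main fit.

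**Figure D5:**
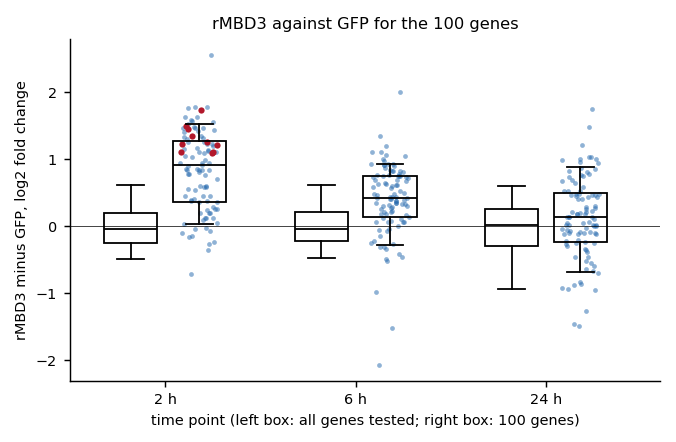
Log2 fold change of rMBD3 over GFP at 2, 6 and 24 h for all genes tested (left box) and the 100 genes (right box with points); boxes are quartiles with the median, whiskers the tenth and ninetieth percentiles, and red points genes past an adjusted p of 0.05. The median of the 100 genes is 0.91 at 2 h, 0.43 at 6 h and 0.13 at 24 h, and 10 genes are red, all at 2 h.

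The differences in shape were tested as interactions. The height of 6 h over the mean of 2 h and 24 h differed between rMBD3 and GFP by a median of -0.08 (0.07 without culture 2). Of the 100 genes edgeR called 0, as it did of all genes (0%), and DESeq2 called 0. An unadjusted p under 0.05 was found in 1 of the 100, beside 302 of the 17172 genes. The increase from 2 h to 6 h was smaller with rMBD3 in 85 of the 100 genes, with a median difference of -0.43. There edgeR called 0 (0% of all genes) and DESeq2 called 0. An unadjusted p under 0.05 was found in 3, beside 311 of the 17172 genes. The difference in the fall had a median of 0.23, with 0 called (0% of all genes) and 0 by DESeq2. At an unadjusted p under 0.05 there was 1, beside 717 of the 17172 genes. The counts of increases were larger in GFP cultures and those of falls in rMBD3 cultures, but no gene of the 100 had a called difference between them in either step. The power of these interaction tests was not measured, so the lack of calls does not show equal shapes.

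Of the 10 genes higher with rMBD3 at 2 h, ENSRNOG00000031167 (chromosome 3, 140599608 to 140628448) had lowest, median and highest values at 2 h of 30.2, 52.7 and 93.02 CPM with GFP and 91.4, 154 and 187 CPM with rMBD3. The 2 groups overlapped through 1 library on each side. The difference was 1.50 ± 0.26 (edgeR adjusted p of 0.0058), and at 6 h it was 0.78 ± 0.26 and did not pass (edgeR adjusted p of 0.231). ENSRNOG00000068566 (chromosome 14, 72961148 to 72964966) held 2.39, 3.68 and 7.27 CPM with GFP and 6.42, 10.9 and 23.8 CPM with rMBD3 at 2 h, with overlap. Its difference was 1.73 ± 0.32 at 2 h and 0.97 ± 0.31 at 6 h (edgeR adjusted p-values of 0.0058 and 0.195). Neither difference at 2 h passed without culture 2 (1.47 and 1.80) or without culture 3 (1.64 and 1.96). Over the 10 genes the difference at 6 h was positive in 10, from 0.25 to 0.97.

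The medium was compared over all 3 kinds of culture, which include the untransfected libraries that chose the genes, although the choice averaged over media. At 6 h, 83 of the 100 genes were higher without magnesium, with a median of 0.15. By edgeR 0 of the 100 were called, as of all genes (0%), and DESeq2 called 0. At an unadjusted p under 0.05 there were 0, beside 355 of the 17172 genes. In the 36 virus libraries alone the median was 0.09, and 0 were called or had an unadjusted p under 0.05 by edgeR. Without culture 2 the median was 0.34, and without culture 1 or culture 3 it was 0.07. The height of the peak was greater without magnesium in 80 genes, with a median of 0.16. Of the 100, 0 were called by edgeR (0% of all genes) and 0 by DESeq2. By edgeR, 2 had an unadjusted p under 0.05, beside 216 of the 17172 genes. The median difference in peak height was 0.10 in the 36 virus libraries alone, where 0 were called or had an unadjusted p under 0.05. It was -0.00 without the 3 libraries of culture 1 with magnesium at 24 h. It was 0.05 without culture 1, 0.38 without culture 2 and 0.20 without culture 3. At 2 h and 24 h, edgeR called 0 of the 100 and 0% of all genes. An unadjusted p under 0.05 was found in 1 and 10 of the 100, beside 132 and 1988 of the 17172 genes. The shares of the 100 were thus near those of all genes. For these times neither DESeq2 nor the virus libraries alone were run. In same-numbered pairs at 6 h the mean level was higher without magnesium in 2 of 3 untransfected pairs, 2 of 3 GFP pairs and 1 of 3 rMBD3 pairs.

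The increase and the fall were also tested in each medium taken alone. With GFP, the increase was called in 19 genes with magnesium and 24 without, beside 2.33% and 3.24% of all genes. The fall was called in 7 and 21, beside 6.1% and 7.39%. With rMBD3, the increase was called in 20 genes with magnesium and 12 without, beside 3.72% and 1.85%, and the fall in 17 and 34, beside 6.5% and 10.9%. The count of GFP falls with magnesium was near the share over all genes. In both kinds of culture, the medium with the lower count of falls held the library of culture 1 with the high 24 h level. With GFP it also held the culture 1 library with the lowest mean level at 6 h. The part of these libraries in the counts was not tested.

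The rule did not use gene structure apart from the limit on span. The 100 genes had fewer exon blocks (merged exons of all transcripts) than candidates, with a median of 6 beside 10, and 28% of them had at most 3, beside 10.2% of candidates. Their median span was 13464 bases beside 25591, and 39% spanned less than 10 kb, beside 22.9%. Spans over 100 kb were found in 5% of the 100 and in 14.2% of candidates. Their exonic length differed less, with a median of 2831 bases beside 3241, and the plus strand held 48% beside 49.7%. The 14 genes past all 4 tests had a median of 5 exon blocks and a median span of 13429 bases, and the 15 past none had 6 and 14995.

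By chromosome, the 100 genes followed the candidates on chromosome 1, with 13 genes beside 13% of candidates. They were more frequent on chromosome 2 (12 genes beside 6.48%), 13 (7 beside 2.95%) and 14 (8 beside 3.46%), and less frequent on chromosome 10 (4 beside 8.87%). These shares were not tested. There were 5 pairs of consecutive genes less than 200 kb apart, of which 3 lay on opposite strands and 2 had no annotated gene between them. Besides the pair on chromosome 1, the latter held ENSRNOG00000002792 and ENSRNOG00000002802 on chromosome 14, which lie on the minus strand 10290 bases apart. An overlap with another annotated gene was found in 16 of the 100, in 13 with a gene on the opposite strand, from which stranded counting separates them, and in 4 with one on the same strand, where counts are less certain.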

How the data were processed

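RNA was measured in 54 libraries by sequencing with a stranded mRNA kit, per the labels' protocols. The deposited count table was made with featureCounts 2.0.0 on read pairs (strand setting 2, minimum mapping quality 3, primary alignments), per the file headers, with the Ensembl release 105 annotation of mRatBN7.2. The labels' protocols name rn6 and STAR, and the submitters' processing notes name mRatBN7.2, Trim Galore, STAR, Salmon, SAMtools, featureCounts and DESeq2; coordinates here are those of the count table. The authors also deposited log2 values, which were not used.

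Groups and culture numbers came from the labels. After filterByExpr had removed low genes (count minimum 10, total minimum 15), libraries were scaled by TMM and fitted with 1 coefficient for each of 18 groups over all 54 libraries, without a block, in edgeR 4.0.16 (R 4.3.3; DESeq2 1.42.0 and Python 3.11.15 were also used). Adjusted p-values are Benjamini-Hochberg over 17172 genes at 0.05. CPM used total counts; standard errors came from the F statistic. A fold change over media weights both equally. Libraries of 1 group were compared with each other by chi-square, and none of 54 pairs agreed within sampling noise (9.76 to 358 per gene). The fit was tested on simulated data for the GFP increase from 2 h to 6 h, with 6 libraries against 6. Changes were planted in 200 of 17172 genes. It recovered 42% of those set at 2-fold and 78% of those set at 4-fold, with the direction right in 96%. False calls came to 7.69%. A gene without a call may therefore still have changed by such an amount. Interactions were not part of this simulation.

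The culture number in the labels was taken to pair the libraries. Deviations from group means correlated by 0.188 on average between same-numbered libraries of different groups, with a lowest value of -0.172. Between others the average was -0.0902. Centring each group on its own mean pushes that value below 0 when the first is above 0, so it is no separate comparison. Alternatives were the culture number as a block, fewer libraries, DESeq2, relative log expression factors, no filter, and each culture left out.

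The 100 genes, the lists and the tests were chosen with earlier results of these data known. The text names the genes highest by score, those with the largest and smallest peak in virus cultures and those with the smallest adjusted p in the comparisons of virus, medium and 24 h against 2 h; because no symbols could be matched, at most 2 per direction are printed, and the chromosome neighbours were named for their position after their values were seen. Planned gene lists and cell type markers need symbols and were not analysed here, and no sequence is shown.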

Additional observations from a re-analysis of the deposited data

How the results depend on the processing

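Counts of the 100 genes past an adjusted p of 0.05 in edgeR moved by over 1.5 times mainly when a culture was left out, with fewer libraries in the fit. The lowest and highest counts over the 3 omissions were 20 and 92 for the GFP increase to 6 h, 6 and 74 for the GFP fall, 9 and 66 for the rMBD3 increase, 15 and 78 for the rMBD3 fall, and 21 and 61 for 24 h against 2 h. They were 1 and 69 for both GFP tests together, 4 and 57 for both rMBD3 tests, 0 and 18 for rMBD3 against GFP at 2 h, and 0 and 25 at 24 h. Calls over all genes, in either direction, moved with the same omissions. They ran from 914 to 6173 for the GFP increase and from 1065 to 6311 for the GFP fall. For the rMBD3 increase they ran from 976 to 5509, and for the rMBD3 fall from 938 to 8022. For rMBD3 against GFP they ran from 1 to 215 at 2 h and from 1 to 1766 at 24 h. With the replicate block, which pairs libraries by culture number, the GFP fall was called in 66 genes, the rMBD3 increase in 59, both GFP tests in 56 and both rMBD3 tests in 45, and rMBD3 against GFP in 30 at 2 h, 3 at 6 h and 8 at 24 h. It changed no other call by that much: the GFP increase had 83, the rMBD3 fall 68, 24 h against 2 h 51, and the medium at 6 h and both comparisons of peak height 0. Over all genes the block called 5393 for the GFP increase and 5968 for the GFP fall. For the rMBD3 increase and fall it called 5494 and 6955 of all genes. DESeq2 called 19 genes at 2 h and 1 at 24 h between rMBD3 and GFP, beside 382 and 590 of all genes. The fit of the 36 virus libraries alone called 1 at 24 h, beside 646 of all genes. The cause of these shifts was not tested. Of 176 alternative values for named genes, 160 kept their direction and their side of the threshold, 15 kept the direction and no longer passed, 1 newly passed, and none changed sign. This tally leaves out some values printed above. Among them are those of the chromosome 1 neighbours, the increase and fall of ENSRNOG00000004624 and the increases of ENSRNOG00000014900. Depth limits the genes at a few CPM, where 3 counts are up to 0.208 CPM.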
